A study of Homo sapiens with 4 samples.

Results

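GATA2 occupancy at the genes of heme synthesis was examined in K562 cells, an established human line from a chronic myeloid leukaemia, in asynchronous cells and in cells arrested in mitosis with nocodazole. The 9 genes were ALAS1, ALAS2, SLC25A38, ALAD, UROS, UROD, CPOX, PPOX and FECH. GATA2 peaks of the ChIP-seq were taken as members if they shared at least 1 base with the GENCODE body of one of these genes extended by 25 kb on each side (hg38). By this rule 29 of the 31777 asynchronous peaks and 6 of the 1648 mitotic peaks were members, and no peak fell in the windows of more than 1 gene. Both groups were K562 cells fixed with disuccinimidyl glutarate and formaldehyde, and endogenous GATA2 was precipitated with the same antibody. The mitotic cells were sorted on MPM-2 staining in several rounds and pooled before the ChIP, and by the submitters' account still held a minority of asynchronous cells. There was 1 GATA2 library per condition, so no difference between the conditions has a replicate check and no test between them was made. Only the position of each peak is listed, with no height or read count, so the depth of the libraries is unknown, and the absence of a mitotic peak means only that none was called.

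Heme is built from glycine and succinyl-CoA along a fixed chain of enzymes that begins and ends in the mitochondrion and passes through the cytosol between. In developing red cells the pathway is switched on together with globin, and GATA factors, which bind a short GATA sequence in promoters and enhancers, are among its known regulators. ALAS1 and ALAS2 are the ubiquitous and the erythroid form of 5-aminolevulinate synthase, the entry step of the chain, and SLC25A38 carries the glycine it uses into mitochondria. ALAD, UROS and UROD act in the cytosol, and CPOX, PPOX and FECH carry out the steps that follow, the last of which inserts the iron. The 9 genes do not hold every enzyme of the chain.

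The sequences at all 6 mitotic peaks are shown from the hg38 reference, in the direction of the member gene whose window holds them. The reference is the same for both conditions, and only the called positions differ. Capitals mark matches to the GATA consensus (A or T, then GATA, then A or G, on either strand) and, where present, the CTG and GATAA of a GATA:E-box composite, in which 8 bases separate the strings. For UROD peaks 3 and 4 the central 300 bp are given. For CPOX peak 1 the stretch upstream of the annotated 5′ UTR is given. The ALAD mitotic peak held no match, and 200 bp around it are shown because a match lies just beyond each of its ends. Peaks are numbered along each gene in the direction of transcription.
UROD peak 2, whole mitotic peak, chr1:45035713-45035923, plus strand: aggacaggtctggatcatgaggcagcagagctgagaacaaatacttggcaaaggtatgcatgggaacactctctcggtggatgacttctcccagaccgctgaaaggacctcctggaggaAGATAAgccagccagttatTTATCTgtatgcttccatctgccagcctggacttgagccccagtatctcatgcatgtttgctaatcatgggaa
UROD peak 3, central part of the mitotic peak, chr1:45037610-45037909, plus strand: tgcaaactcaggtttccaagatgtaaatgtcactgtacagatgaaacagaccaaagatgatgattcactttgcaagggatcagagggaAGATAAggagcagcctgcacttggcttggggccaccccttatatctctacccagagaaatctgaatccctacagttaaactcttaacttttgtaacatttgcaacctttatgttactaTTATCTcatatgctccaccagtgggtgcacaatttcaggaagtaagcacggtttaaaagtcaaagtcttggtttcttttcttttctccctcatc
UROD peak 4, central part of the mitotic peak, chr1:45038896-45039195, plus strand: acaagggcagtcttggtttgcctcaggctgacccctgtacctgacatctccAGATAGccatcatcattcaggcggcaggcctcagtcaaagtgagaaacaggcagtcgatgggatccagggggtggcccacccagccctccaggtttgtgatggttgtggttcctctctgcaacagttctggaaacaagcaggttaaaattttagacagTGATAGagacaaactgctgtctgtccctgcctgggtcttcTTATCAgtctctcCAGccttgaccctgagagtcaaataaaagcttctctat
CPOX peak 1, upstream part of the mitotic peak, chr3:98593649-98593854, minus strand: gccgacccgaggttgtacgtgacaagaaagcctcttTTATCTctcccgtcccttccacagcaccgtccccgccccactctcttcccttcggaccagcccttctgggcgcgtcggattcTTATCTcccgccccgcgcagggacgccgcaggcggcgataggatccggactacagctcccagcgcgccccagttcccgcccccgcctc
CPOX peak 3, whole mitotic peak, chr3:98583815-98584024, minus strand: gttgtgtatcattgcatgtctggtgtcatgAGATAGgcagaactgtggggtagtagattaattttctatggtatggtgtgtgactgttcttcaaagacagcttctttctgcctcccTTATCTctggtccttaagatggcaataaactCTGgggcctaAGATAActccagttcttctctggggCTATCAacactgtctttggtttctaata
ALAD peak 5, surroundings of the mitotic peak, chr9:113369129-113369328, minus strand: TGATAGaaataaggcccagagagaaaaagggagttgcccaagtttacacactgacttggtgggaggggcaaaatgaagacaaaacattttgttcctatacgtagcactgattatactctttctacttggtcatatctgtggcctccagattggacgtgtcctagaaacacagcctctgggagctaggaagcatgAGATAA

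All 9 genes had at least 1 asynchronous GATA2 peak in their window, beside 64.7% of all protein-coding genes. They had between 1 and 5, with a median of 3 beside 1 for all coding genes, and 7 of the 9 had at least 3, beside 27.5%. ALAD had the most with 5, ALAS2, UROD and FECH had 4 each, ALAS1, UROS and CPOX had 3 each, PPOX had 2 and SLC25A38 had 1. Over the windows of the 9 genes there were 4.61 asynchronous peaks per 100 kb (95% exact Poisson interval 3.09 to 6.63), and over the merged windows of all coding genes 1.46. Within the gene bodies alone the densities were 8.96 and 1.38. Over merged windows the density was 4.06 at the globin genes and 3.31 at the genes of iron uptake and storage, lists described below. Both values lie inside the interval of the 9 genes, so the heme synthesis genes were not set apart from these lists. At the other heme genes it was 2.26, which lies below that interval. The intervals cover counting error only, and expression was not measured, so the part of gene activity in these densities was not tested.

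In mitotic cells, 3 of the 9 genes had a peak in their window, beside 8.0% of protein-coding genes. UROD had 3 mitotic peaks, beside 0.180% of coding genes with at least 3, CPOX had 2, beside 0.973% with at least 2, and ALAD had 1. ALAS1, ALAS2, SLC25A38, UROS, PPOX and FECH had none, and the mitotic peak nearest to the body of each of these 6 genes lay between 89780 bp (ALAS2) and 698711 bp (ALAS1) away. Each of the 6 mitotic peaks lay wholly inside 1 asynchronous peak. In the whole list 97.5% of mitotic peaks shared at least 1 base with one, a looser measure, and the share wholly inside one is not given here. Of the 29 asynchronous peaks 6 were thus bookmarked, meaning that they shared at least 1 base with a mitotic peak, which is 20.7% (95% exact binomial interval 7.99% to 39.7%), beside 5.04% of all asynchronous peaks. The 3 bookmarked peaks of UROD lay within 4061 bp of each other and are not independent. Without UROD, 3 of 25 peaks were bookmarked, or 12% (2.55% to 31.2%), an interval that includes the share of all peaks. Without CPOX, 4 of 26 were, or 15.4% (4.36% to 34.9%), which also includes that share. With any other single gene left out, the interval lay above it. The mitotic peaks of UROD and ALAD lay more than 10 kb from the genes. Within 10 kb of the gene bodies 2 of 21 peaks, both of CPOX, were bookmarked, or 9.52% (1.17% to 30.4%) beside 4.73% at all coding genes. In the gene bodies alone the share was 12.5% (1.55% to 38.3%) beside 4.76%. Both of these intervals include the share at all coding genes.

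ALAS2 (ENSG00000158578, chromosome X, minus strand, 55009055 to 55030977) makes the erythroid enzyme, and its introns 1 and 8 are known to hold erythroid enhancers. It had asynchronous peaks at its promoter and in both introns and no mitotic peak. Peak 1, at chrX:55030874-55031190, contained the canonical transcription start site (TSS), was 317 bp wide and held 2 GATA matches. Peak 2, at chrX:55027930-55028545 in intron 1, was 616 bp wide with 1 match. Peak 3, at chrX:55014870-55015468 in intron 8, was 599 bp wide with 4 matches. The intronic peaks were wider than 85.6% and 84.1% of all asynchronous peaks, whereas the promoter peak was wider than 36.3%. Peak 4, the widest at 725 bp, lay beyond the 3′ end of ALAS2 in intron 1 of PFKFB1, whose TSS was 615 bp away.

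The ALAS2 sequences are shown because these are asynchronous-only sites at the promoter and at the enhancer introns, each as the 200 bp outside annotated UTRs with most GATA matches. The promoter sequence ends at the base before the TSS. It also held the string TGACTCA, an AP-1 or NF-E2 type core, and a CACCC box, CCNCACCC, the type of string bound by Krüppel-like factors.
ALAS2 peak 1, promoter, chrX:55030978-55031177, minus strand: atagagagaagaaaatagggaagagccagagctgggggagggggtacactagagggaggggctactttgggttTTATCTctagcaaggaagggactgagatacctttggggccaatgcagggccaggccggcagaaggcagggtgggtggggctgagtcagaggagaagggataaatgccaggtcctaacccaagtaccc
ALAS2 peak 2, intron 1, chrX:55028138-55028337, minus strand: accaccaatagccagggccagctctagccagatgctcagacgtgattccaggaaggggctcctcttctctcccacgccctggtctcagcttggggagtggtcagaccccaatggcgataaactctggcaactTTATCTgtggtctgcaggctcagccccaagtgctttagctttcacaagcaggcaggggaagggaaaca
ALAS2 peak 3, intron 8, chrX:55015069-55015268, minus strand: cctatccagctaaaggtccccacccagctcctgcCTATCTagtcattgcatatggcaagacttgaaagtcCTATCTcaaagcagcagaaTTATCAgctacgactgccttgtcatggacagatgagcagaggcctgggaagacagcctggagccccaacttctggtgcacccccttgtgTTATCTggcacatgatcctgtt

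ALAS1 (ENSG00000023330, chromosome 3, plus strand, 52198086 to 52214327) makes the ubiquitous enzyme and differed from ALAS2 in where its peaks lay. Its peak 2, at chr3:52188402-52189641, was upstream of the gene, 8445 bp from the nearest TSS. At 1240 bp it was the widest of the 29 peaks and wider than 99.6% of all asynchronous peaks, and no mitotic peak was called in it. It held 5 GATA matches and 1 composite. Peak 3 was 378 bp wide, lay over exon 2, 444 bp downstream of the TSS, and held 1 match. Peak 1 was 287 bp wide, 15621 bp upstream, also with 1 match. No peak contained a TSS of ALAS1, and none lay in its intron 1.

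SLC25A38 (ENSG00000144659, chromosome 3, plus strand, 39383370 to 39397351), the mitochondrial glycine carrier, had the fewest peaks and the narrowest one. Its only asynchronous peak, at chr3:39388709-39388945 in intron 1, was 237 bp wide, wider than 17.7% of all asynchronous peaks, and held 1 GATA match. It was 5339 bp from the canonical TSS and 901 bp from the start of another transcript.

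ALAD (ENSG00000148218, chromosome 9, minus strand, 113386312 to 113401290), which condenses 5-aminolevulinate into porphobilinogen, is known to have a housekeeping and an erythroid promoter. Peaks 2 and 3, 352 and 453 bp wide, both lay in intron 1 and 530 bp apart, and peak 3 contained the TSS of an alternative transcript. They held 1 and 2 GATA matches. Peak 1 was centred in exon 1 of the neighbour C9orf43 and held no match. Peaks 4 and 5 lay beyond the 3′ end of ALAD, nearest to the TSS of HDHD3. Peak 5, at chr9:113368549-113369472, was 924 bp wide and the only bookmarked peak of ALAD. Its mitotic peak, at chr9:113369146-113369314 in intron 5 of BSPRY, was 169 bp wide, wider than 2.18% of all mitotic peaks. It covered 18.3% of the asynchronous peak. The asynchronous peak held 5 GATA matches and the mitotic peak 0, but the nearest match lay 8 bp beyond its end.

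UROS (ENSG00000188690, chromosome 10, minus strand, 125784980 to 125823258), which closes the porphyrin ring, is also known to have an erythroid promoter inside the gene. Its peak 2, at chr10:125816226-125817140 in intron 1, was 915 bp wide, contained an alternative TSS and held 4 GATA matches. It was wider than 97.5% of all asynchronous peaks, and no mitotic peak was called in it. The 200 bp with most matches are shown because this is the widest asynchronous-only peak after that of ALAS1.
UROS peak 2, intron 1, chr10:125816681-125816880, minus strand: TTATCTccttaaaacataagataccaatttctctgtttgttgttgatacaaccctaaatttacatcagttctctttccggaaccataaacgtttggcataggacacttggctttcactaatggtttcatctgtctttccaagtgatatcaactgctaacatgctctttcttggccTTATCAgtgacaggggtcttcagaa
Peak 1, 295 bp wide in intron 3 of the neighbour BCCIP, also held 4 matches, which at 13.6 per kb was the highest number per length among the 29 peaks. Peak 3 lay in intron 6, was 282 bp wide and held 2.

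UROD (ENSG00000126088, chromosome 1, plus strand, 45010950 to 45015575) removes carboxyl groups from uroporphyrinogen, and had more mitotic peaks than any other of the 9 genes. Its own peak, peak 1 at chr1:45012606-45013212, was 607 bp wide over exon 2, contained an alternative TSS and was not bookmarked. It held 3 GATA matches, of which 1 formed a composite.
UROD peak 1, over exon 2, chr1:45012992-45013191, plus strand: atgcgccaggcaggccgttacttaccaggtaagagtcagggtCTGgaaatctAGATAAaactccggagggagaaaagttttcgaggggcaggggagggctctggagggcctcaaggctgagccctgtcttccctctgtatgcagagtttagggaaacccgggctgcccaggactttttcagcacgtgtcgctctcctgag
Peaks 2, 3 and 4 lay 22481, 24513 and 25839 bp from the nearest UROD TSS, inside the 3′ part of the body of ZSWIM5, and were 867, 666 and 703 bp wide. All 3 were bookmarked. UROD was the coding gene with the nearest TSS for each, although the midpoints lay in exon 10, intron 8 and intron 7 of ZSWIM5, and the lists do not say which gene such a site acts on. Their mitotic peaks were 211, 429 and 514 bp wide and covered 24.3%, 64.4% and 73.1% of the asynchronous peaks. They held 2, 3 and 3 GATA matches, and the composite of peak 4 was inside the mitotic peak.

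CPOX (ENSG00000080819, chromosome 3, minus strand, 98579446 to 98593648), the mitochondrial coproporphyrinogen oxidase, was the only one of the 9 genes whose TSS lay in a mitotic peak, beside 0.265% of coding genes. Peak 1, at chr3:98593592-98594002, was 411 bp wide with 3 GATA matches, and its mitotic peak, at chr3:98593609-98593854, was 246 bp wide with 2. The TSS, at 98593611, lay at the edge of this mitotic peak, nearly all of which was upstream of it. Peak 1 was the narrowest of the 6 bookmarked peaks. In intron 5, peak 3, at chr3:98583629-98584490, was 862 bp wide with 6 matches, the most of any member. Its mitotic peak, at chr3:98583815-98584024, was 210 bp wide and held 4 of them, or 19 per kb, with the composite. Peak 2, 289 bp wide and centred in exon 5, held no GATA match and was not bookmarked. The intronic peak 3 was nearer to the TSS of ENSG00000285635, an unnamed coding gene that overlaps CPOX, than to that of CPOX. Peak 2 contained a TSS of ENSG00000285635.

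PPOX (ENSG00000143224, chromosome 1, plus strand, 161166056 to 161178013), protoporphyrinogen oxidase, had a peak at each end of the gene. Peak 1, at chr1:161166394-161166994, contained the canonical TSS, was 601 bp wide and held 1 GATA match and 1 CACCC box. Peak 2, at the 3′ end, was 365 bp wide with 1 match and contained a TSS of the neighbour B4GALT3. Neither was bookmarked.

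FECH (ENSG00000066926, chromosome 18, minus strand, 57544377 to 57586732), ferrochelatase, inserts the iron in the last step. Its widest peak, peak 3 at chr18:57583272-57584044 in intron 1, was 773 bp wide and held 5 GATA matches. Peak 2, 1611 bp upstream of the TSS, was 272 bp wide with 1 match. Peak 1, in intron 11 of NARS1, was 374 bp wide with 1, and peak 4, beyond the 3′ end of FECH, was 339 bp wide with 2. None of the 4 was bookmarked.

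Position relative to the gene was a feature that several members shared. The TSS of at least 1 coding transcript lay inside an asynchronous peak at 6 of the 9 genes (ALAS2, ALAD, UROS, UROD, CPOX and PPOX), beside 3.89% of protein-coding genes. Counting the canonical transcript only, these were ALAS2, CPOX and PPOX, 3 of 9 beside 1.71%. A peak was centred in intron 1 at 6 of the 9 genes (ALAS2, SLC25A38, ALAD, UROS, PPOX and FECH), beside 16.5% of coding genes with an intron and 6.21% of those whose intron 1 was no shorter and no longer than the members'. Per length there were 20.6 peaks per 100 kb of intron 1 in the members and 2.88 in those genes. The members' intron 1 had a median length of 4926 bp against 1714 bp there, so the density is the fairer of these values. The counts of TSS and of intron 1 are not independent. ALAD peak 3, UROS peak 2 and PPOX peak 1 were centred in intron 1 and also contained a TSS. Intron 1 of PPOX is only 167 bp long, shorter than its peak. The nearest coding TSS belonged to the member itself for 21 of the 29 peaks (72.4%) and to a neighbour in the window for 8. With the TSS of genes of every type the member's share was 58.6%, and with the 5′ end of each coding gene 55.2%.

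Bookmarked peaks of the heme genes were wide, and wide peaks were not all bookmarked. The median of the 29 widths was 453 bp, with quartiles at 339 and 703 bp, beside 378 bp for all asynchronous peaks, and 18 of them were at or above that median, beside 50.1%. The 6 bookmarked peaks were 411 to 924 bp wide with a median of 782.5 bp, and the 23 asynchronous-only peaks were 237 to 1240 bp wide with a median of 378 bp. The groups overlapped, since 10 asynchronous-only peaks were wider than the narrowest bookmarked peak. These were peak 2 of ALAS1, peaks 2, 3 and 4 of ALAS2, peaks 3 and 4 of ALAD, peak 2 of UROS, peak 1 of UROD, peak 1 of PPOX and peak 3 of FECH. In the widest decile of the list, from 681 bp, lay 8 member peaks, beside 10.0% of all peaks, and 4 of these 8 were bookmarked (50.0%, interval 15.7% to 84.3%), beside 24.6% of all peaks in that decile. Among the 18 member peaks at or above the median width, 33.3% (13.3% to 59.0%) were bookmarked, beside 9.65% of all such peaks, and none of the 11 narrower ones was. In the whole list the bookmarked share rose from 0.0636% in the narrowest decile to 24.6% in the widest, and the part of width in the members' share was not tested.

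**Figure D1:**
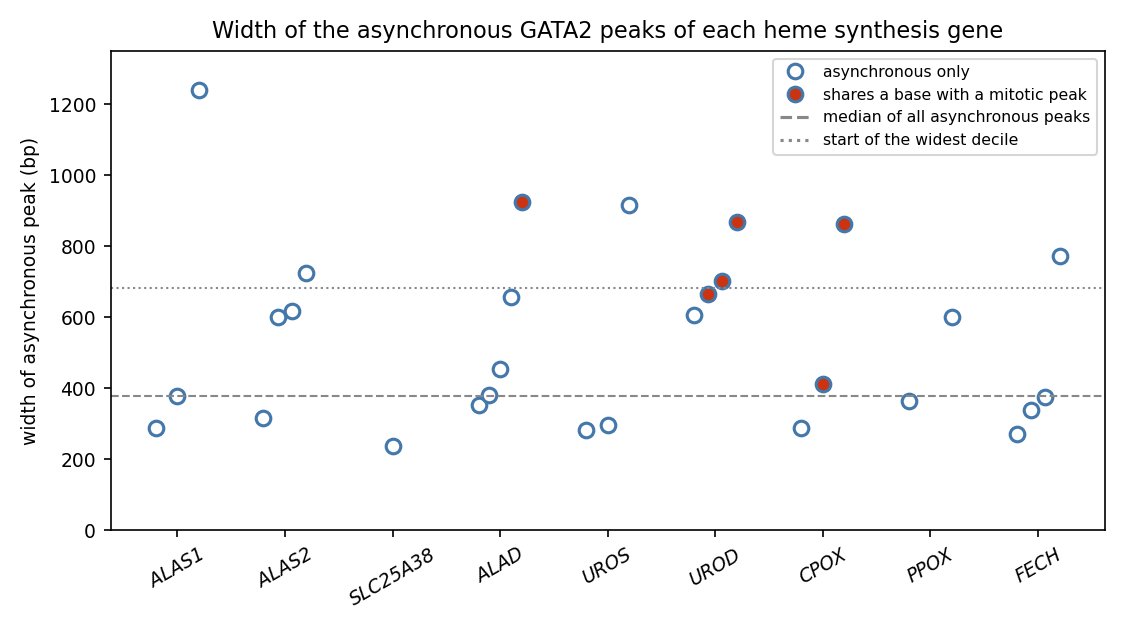
Width in bp of each asynchronous GATA2 peak by heme synthesis gene, 29 peaks in all. Filled points share bases with a mitotic peak, the dashed line is the median of all asynchronous peaks (378 bp) and the dotted line the start of the widest decile (681 bp). The widest point, 1240 bp at ALAS1, is asynchronous only.

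At least 1 GATA match was found in 27 of the 29 member peaks, or 93.1% (95% exact binomial interval 77.2% to 99.2%), beside 93.0% of all asynchronous peaks, so the members did not stand apart in this share. In the central 200 bp the share was 75.9% (56.5% to 89.7%), beside 84.8%. They held 71 matches in all, which at 4.50 per kb was a lower rate than the 6.0 per kb in all peaks. Of the 71, 33 were AGATAA (46.5% beside 43.5%). The composite was found in 4 peaks, or 13.8% (3.89% to 31.7%), beside 8.55%, namely ALAS1 peak 2, UROD peaks 1 and 4 and CPOX peak 3. With 7, 8 or 9 bases between the strings it was found in 8 peaks, or 27.6% (12.7% to 47.2%), beside 23.4%. Both intervals include the share of all peaks, and per kb the composite with 8 bases was found 0.253 times beside 0.211. Among the bookmarked peaks 2 of 6 held it and among the others 2 of 23. The bookmarked peaks were also wider, with a median of 782.5 against 378 bp. The same split over all asynchronous peaks is not given here, so these counts are a description only.

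Within the 6 bookmarked peaks, 14 GATA matches lay wholly inside the mitotic peaks, which span 1779 bp, and 9 in the remaining 2654 bp. This is 7.87 per kb inside and 3.39 per kb outside. UROD peaks 2 and 4 had all their matches inside, CPOX peak 3 had 4 of 6, UROD peak 3 had 3 of 4 and CPOX peak 1 had 2 of 3, while ALAD peak 5 had all 5 outside. Mitotic peaks of the whole list held 7.5 matches per kb. At least 1 match was present in 5 of the 6 mitotic peaks, beside 95.6% of the whole list, and the composite in 2 of the 6, beside 13.1%. With 6 sites these are descriptions only.

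**Figure D2:**
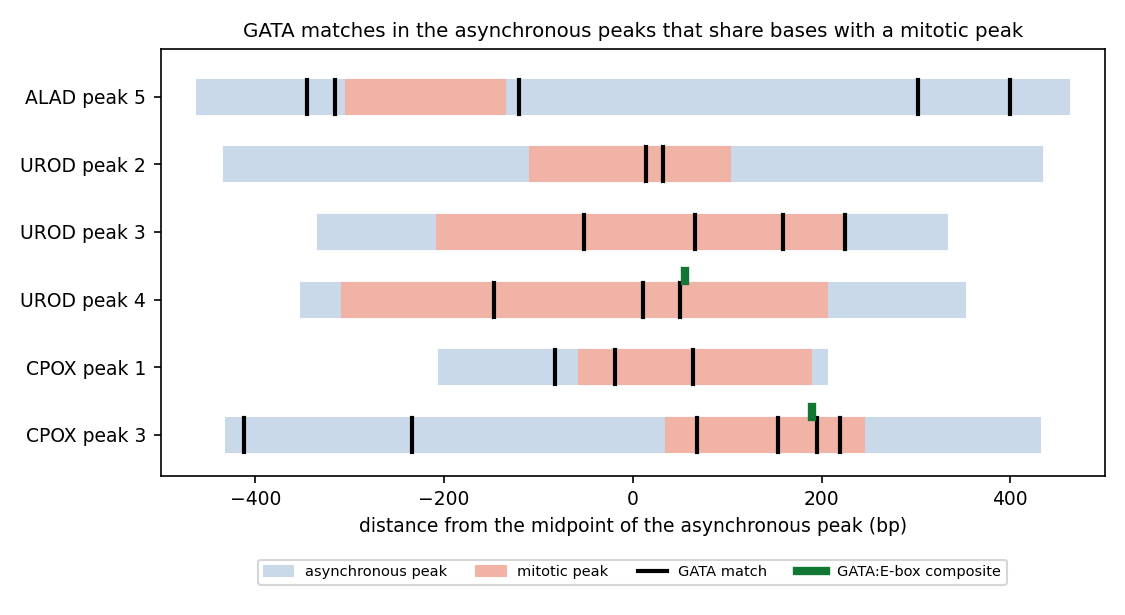
Distance in bp from the midpoint of the asynchronous peak of each GATA match (black) and GATA:E-box composite (green) in the 6 bookmarked peaks, drawn in the direction of transcription. Pale blue is the asynchronous peak and pale red its mitotic peak. The matches lie inside the mitotic peak or at its edge at UROD and mostly so at CPOX, and outside it at ALAD.

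Strings of other factors were searched on both strands in the same peaks. CACCC boxes were present in 8 of the 29 peaks, or 27.6% (12.7% to 47.2%), beside 13.0% of all asynchronous peaks, and TGACTCA in 7, or 24.1% (10.3% to 43.5%), also beside 13.0%. The E-box CAGCTG was present in 10 of 29, beside 24.1%, the RUNX core AACCACA in 3, beside 13.6%, and the ETS core AGGAAGT in 2, beside 14.9%. The 95% exact binomial intervals of all 5 strings included the share of all peaks. Member peaks were wider in the median (453 against 378 bp), so rates per kb are given too. In member peaks and in all peaks these were 0.633 and 0.352 for CACCC boxes and 0.443 and 0.343 for TGACTCA. They were 0.760 and 0.699 for CAGCTG, 0.190 and 0.359 for the RUNX core, and 0.127 and 0.390 for the ETS core. The CACCC boxes were in peaks 1, 3 and 4 of ALAS2, peaks 3 and 5 of ALAD, peak 1 of UROD, peak 1 of PPOX and peak 3 of FECH. Of the 6 mitotic peaks, 0 held a CACCC box, TGACTCA or CAGCTG (upper limit of each 45.9%), beside 8.74%, 11.7% and 23.5% of all mitotic peaks, and the RUNX core and the ETS core were each in 1, beside 13.2% and 14.2%. RefSeq promoter windows (GRCh38.p14, 250 bases before to 50 after the start) were matched for 8 of the 9 genes (UROS not). At least 1 window held a GATA match for ALAS2, CPOX, PPOX and ALAD. Of all promoter windows 25% held one, a share that counts windows and not genes. PPOX and ALAD had more than 1 window each, and not all of these held a match. The windows of ALAS2, CPOX and PPOX overlapped an asynchronous peak, for which the share over all windows was not computed.

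Other genes of heme transport, handling and breakdown were set beside the 9. Of 19 such genes, 14 had an asynchronous and 5 a mitotic peak in their window. Those with a mitotic peak were ABCB10, a mitochondrial transporter needed for heme synthesis, SLC25A37, which imports mitochondrial iron, FLVCR1, a heme exporter, BLVRA, a biliverdin reductase, and SLC48A1, a lysosomal heme transporter, each with 1. BLVRA had the most asynchronous peaks with 10, then ABCB10 with 4, then FLVCR1, FLVCR2, BLVRB and FAM210B with 3 each. The 5 genes with no peak of either kind were HMOX1 and HMOX2, the heme oxygenases, SLC25A28, PGRMC1 and HEBP1, which are named here after their values were seen. Of 10 genes of iron uptake and storage, all had an asynchronous and 2 a mitotic peak. Of 10 globin genes, 9 had an asynchronous peak and 0 a mitotic peak, and windows within each globin cluster overlap. Of the asynchronous peaks, 13.2% (4.41% to 28.1%) were bookmarked at the other heme genes, 10.3% (2.19% to 27.4%) at the iron genes and 0 of 17 at the globin genes (upper limit 19.5%). These intervals all overlapped that of the 9 genes.

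The peak nearest to the limit of 25 kb from inside was UROD peak 4, 23170 bp from the gene body and bookmarked. At the other genes it was FECH peak 1, 17151 bp away and asynchronous only. The nearest outside were at ALAS1 (26158 bp, 292 bp wide), CPOX (27238 bp, 624 bp wide) and FECH (27752 bp, 648 bp wide), none of them bookmarked.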

How the data were processed

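Reads had been aligned by the authors with BWA 0.7.12 (build hg38). They kept uniquely mapped reads, extended them, called peaks with MACS2 2.1.0 and Genrich 0.6.1 and removed peaks on the ENCODE blacklist. How the calls were combined and which thresholds and input were used is not given in the sources used here. The deposited values are peak positions in bp in 3 columns (chromosome, start, end), with 1 list per condition and no score. The input libraries were not analysed here. Positions stay on hg38 and are printed counting the first base as 1. No peak reached past the end of its chromosome in the reference.

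Genes, transcripts and canonical transcripts were those of GENCODE release 44. Distances run from the peak edge to the nearest TSS of any coding transcript, exons and introns are those of the canonical transcript at the peak midpoint, and lists were matched by at least 1 shared base. Motifs were fixed strings, counted without overlap on both strands of the reference. Shares have exact binomial and densities exact Poisson intervals at 95%, which cover counting error only. Asynchronous and mitotic cells were not tested against each other for want of replicates. The 9 genes, the other gene lists and the alternatives were chosen with earlier results of these data known. The rule for naming took all 9 genes, every mitotic peak in their windows, and, of the other heme genes, those with a mitotic peak or most asynchronous peaks (ties included). The other heme genes without a peak are named outside this rule. The overlap and motif steps were tested on simulated data. Python 3.11.15, numpy 2.4.6, scipy 1.17.1, pandas 2.3.3, pysam 0.24.0 and matplotlib 3.10.9 were used.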

Additional observations from a re-analysis of the deposited data

How the results depend on the processing

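Of 46 values recomputed under alternatives, 37 stayed within 1.5 times (counts) or within the 95% interval of the value reported, and 9 did not. With the gene bodies alone there were 16 asynchronous and 2 mitotic peaks, and the density was 8.96 peaks per 100 kb. With an extension of 10 kb there were 2 mitotic peaks, both of CPOX. Restriction to the wider part of the asynchronous list (from its median) left 18 peaks and a density of 2.86. In the central 200 bp, 75.9% of the member peaks held a GATA match and 3.45% the composite, beside 84.8% and 6.29% of all asynchronous peaks. With spacings of 7, 8 or 9 bases the share with the composite was 27.6%, beside 23.4%. Without UROD, an alternative chosen after the data were seen, 3 mitotic peaks remained. The share of bookmarked peaks ran from 9.52% (extension of 10 kb, beside 4.73% at all coding genes) to 33.3% (wider part of the list, beside 9.65% of all such peaks), and was 10.3% with 50% reciprocal overlap, beside 2.02% of all peaks. No paired analysis was possible because each condition has 1 library. Depth is unknown, so a site without a mitotic peak cannot be told from one under the limit of detection.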
